A study of Mus musculus with 8 samples.

Results

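The SR splicing factors are nuclear RNA-binding proteins that carry RNA recognition motifs and a tail rich in arginine and serine (the RS domain). They were followed here as transcripts on polysomes of the mouse main olfactory epithelium. Members were chosen by symbol, as 10 genes (Srsf1 to Srsf7 and Srsf9 to Srsf11) known for poison exons and detained introns, and all 10 were found among the 21765 gene symbols of the table. On a polysome gradient a message travels deeper the more ribosomes it holds. Early (lighter) polysomes were fractions 27 to 34 and late (heavier) polysomes fractions 35 to 42, from tissue treated with 100 µg/mL cycloheximide, which holds ribosomes on the message.

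Wild-type (WT) mice were Mex3a flox/flox or Mex3a flox/+ without Cre. Conditional knockout (cKO) mice were Mex3a flox/flox with Cre from a line that is not reported here. Both groups therefore carried a floxed allele of Mex3a, which encodes an RNA-binding protein. Each genotype had 2 lysates, and each lysate gave 1 early and 1 late library, so that the 4 groups held 2 libraries each. The age of the mice and any pooling of animals are not stated, so p-values measure only the spread between these libraries. One library, WT early replicate 2, is WT by its title but has a cKO genotype tag; it was kept as WT. The design text given for the whole series also names sorted cells and tetO-HyperTRIBE-mCherry transgenes driven by tTA lines, which the labels of these 8 samples do not mention.

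SR proteins bind exonic enhancers, help the spliceosome to choose splice sites and, in several cases, escort spliced messages to the cytoplasm. Many regulate their own level: when the protein is abundant it promotes inclusion of a poison exon, whose early stop codon exposes the message to nonsense-mediated decay (NMD), a translation-dependent pathway. Incompletely spliced transcripts with detained introns stay in the nucleus and form another reserve. The olfactory epithelium renews its sensory neurons from basal stem cells throughout life, and alternative splicing changes along neuronal differentiation.

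The gene models show why the level of a gene on polysomes need not be the level of its full-length message. GENCODE (GRCm38, the build that the submitters' processing notes name as mm10) lists NMD isoforms for 9 of the 10 genes, all except Srsf10, and retained-intron isoforms for 8, all except Srsf9 and Srsf10. The deposited values are summed per gene, so productive and poison isoforms were counted together. For Srsf3, Srsf4, Srsf7, Srsf9 and Srsf11 the stop codon of an NMD isoform lies in an exon that no coding isoform holds. The sites below show that stop codon in capitals, with the last 12 coding bases before it and 15 bases after it, because they are what separates the decay-prone message from the productive one.
Srsf3 poison stop: ctcaccaccctcTGAatctgcattagccag
Srsf4 poison stop: catgccccagctTAGagtgcttcaccctac
Srsf7 poison stop: agtcagtcgcctTGAttcagaatgtcacga
Srsf9 poison stop: acggattcacagTAGaagtactccggactt
Srsf11 poison stop: cctggttcagccTGAactatataccaggcc

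The Srsf3 stop lies in a 456-nt exon on chromosome 17 (29039454 to 29039909, plus strand), which ends translation after 124 of 164 codons. The Srsf7 stop lies in a 460-nt exon on chromosome 17 (80204622 to 80205081, minus strand), after 137 of 238 codons. In Srsf11 it lies in a 109-nt exon on chromosome 3 (158024123 to 158024231, minus strand), after 112 of 511 codons. In Srsf4 it lies in a 207-nt exon on chromosome 4 (131884276 to 131884482, plus strand). In Srsf9 it lies in a 358-nt exon on chromosome 5 (115328347 to 115328704, plus strand). The annotated coding parts of these Srsf4 and Srsf9 isoforms, 167 and 184 nt, are not in whole codons, so no codon position is given. Srsf2 is different: the longer of its NMD isoforms keeps all 221 codons, and 3 further exons follow the exon with the stop codon.

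Arginine and serine content, counted over the whole coding sequence and not the RS domain alone, also separates the members. Arginine and serine codons made up 45.7% of the Srsf2 coding sequence, 44.5% of Srsf7 and 43.0% of Srsf4, against 22.1% of Srsf9, the lowest of the 10. The 20 neighbouring codons richest in arginine or serine are shown for the genes that lay at the ends of the late-against-early order described below, with arginine codons in capitals.
Srsf2 RS codons: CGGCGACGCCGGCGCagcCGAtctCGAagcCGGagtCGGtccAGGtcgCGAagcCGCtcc
Srsf7 RS codons: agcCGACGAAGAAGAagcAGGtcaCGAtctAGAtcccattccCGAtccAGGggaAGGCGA
Srsf9 RS codons: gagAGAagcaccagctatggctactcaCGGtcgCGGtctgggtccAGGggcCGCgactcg
Srsf10 RS codons: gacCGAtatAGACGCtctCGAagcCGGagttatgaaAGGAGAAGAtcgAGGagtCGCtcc
In Srsf2 all 20 of these codons encode arginine or serine, in Srsf7 18, in Srsf10 16 and in Srsf9 12. In the genes not shown the count was 20 in Srsf6, 19 in Srsf1 and Srsf5, 18 in Srsf4 and Srsf11, and 17 in Srsf3.

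TPM, a share of transcripts corrected for their length, was deposited for every library, and whole reads behind the values were inferred from their steps. Inferred reads came to between 7776792 (cKO late replicate 2) and 12771079 (WT late replicate 2) per library, and Pearson correlations between both replicates of each group, taken over genes, lay at 0.978 to 0.985. Mex3a was at 93.2 to 115.6 TPM in the 4 libraries labelled WT and at 11.1 to 19.8 TPM in the 4 labelled cKO. The WT early library with the conflicting tag was at 115.6 TPM. Markers of mature olfactory sensory neurons (Omp, Gnal, Adcy3, Cnga2, Gng13 and Stoml3) were all present, and their summed levels were 9961 to 12129 TPM in early and 6692 to 8177 TPM in late libraries. Markers of sustentacular (supporting) cells (Cyp2g1, Ermn, Cyp1a2 and Sec14l3) summed to 1429 to 2121 TPM in early and 5635 to 6544 TPM in late libraries. The part of both marker lists in the late-against-early differences of the Srsf genes was not tested. Early and late libraries of a lysate came from the same cells. Between genotypes, fewer cells of a type and less RNA per cell cannot be told apart in whole tissue.

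All 10 Srsf genes were well expressed on polysomes, with 275 to 4312 inferred reads per gene and library, and all 10 passed the filter of a mean of at least 1 TPM. Together they made up 0.126% to 0.135% of TPM in early and 0.156% to 0.167% in late libraries, so that the family total was higher in each of the 4 late libraries than in any early one. Srsf5 led over all 8 libraries with a mean of 240.2 TPM, followed by Srsf2 at 203.3 TPM, and Srsf10 was lowest at 47.3 TPM. Srsf12, a related gene outside the 10, was at 0.39 to 3.44 TPM.

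**Figure D1:**
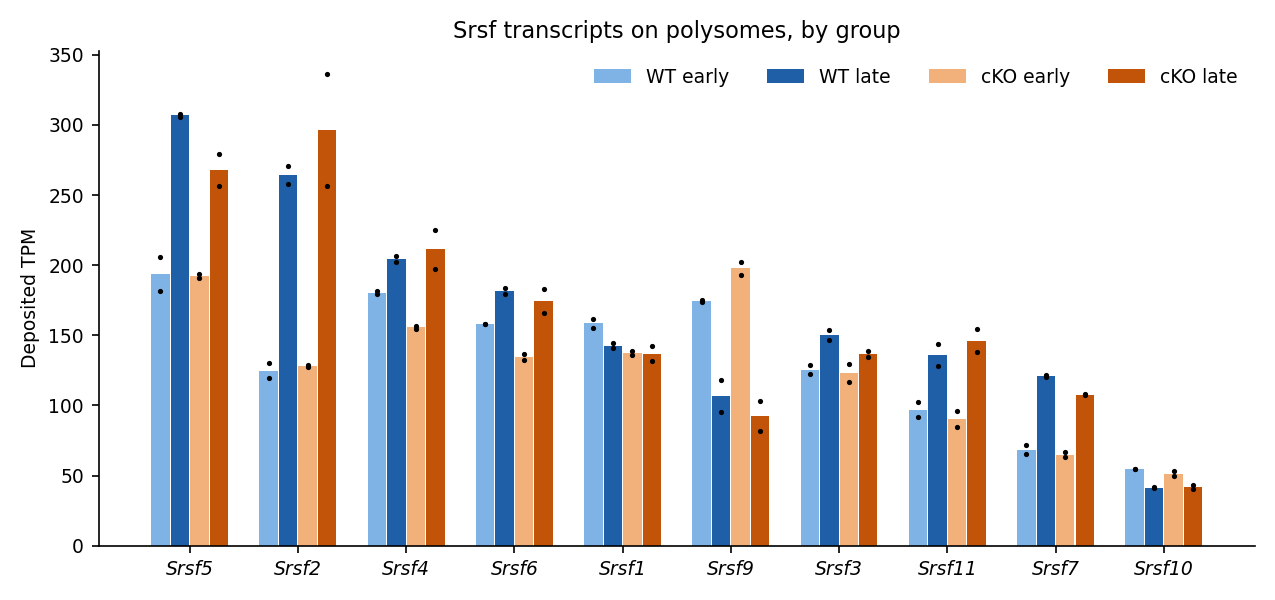
Deposited TPM of the 10 Srsf genes in the 4 groups; bars are means of 2 libraries and points are single libraries. Genes are ordered by their mean over all libraries, from Srsf5 at 240.2 TPM to Srsf10 at 47.3 TPM, and the late bars of Srsf2 stand above its early bars while those of Srsf9 stand below.

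The order of levels differed between fractions. In WT early libraries Srsf5 (194 ± 16.7 TPM), Srsf4 (180 ± 1.62) and Srsf9 (174 ± 1.13) led, and Srsf7 (68.4 ± 4.78) and Srsf10 (54.5 ± 0.205) came last (SD, n = 2 libraries each). Srsf1 and Srsf6 overlapped there, at 155.5 to 161.4 and 157.7 to 158.2 TPM, as did Srsf3 and Srsf2. In WT late libraries Srsf5 (307 ± 1.72 TPM) and Srsf2 (264 ± 8.73) led, and Srsf9 (107 ± 16.3) had moved to the ninth place (SD, n = 2 libraries each). Srsf1 and Srsf11 overlapped in that group. In cKO early libraries Srsf9 and Srsf5 overlapped at the top, and in cKO late libraries Srsf2 and Srsf5 did, at 256.2 to 336.1 and 256.6 to 279.4 TPM. Srsf10 was the lowest of the 10 in each of the 4 groups.

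Late against early polysomes asked where on the gradient each message sat relative to the other genes. TPM values are shares of a library and were scaled to the typical gene, so the amount of a message in each fraction was not measured. On average of the genotypes, 6 of the 10 genes were higher in late polysomes (Srsf2, Srsf7, Srsf11, Srsf5, Srsf4 and Srsf6), 3 were lower (Srsf9, Srsf10 and Srsf1), and Srsf3 did not pass. Over all genes 68.9% passed in this comparison, 34.3% higher and 34.6% lower in late polysomes, so that a passing gene was common. The median change was 0.18 log2 for the 10 genes and -0.011 for all 16097 tested genes. Tests were made with limma on log2(scaled TPM + 1), adjusted by the Benjamini-Hochberg method over all tested genes with a threshold of 0.05. Fold changes on this scale understate the change of low genes.

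Srsf2, also known as SC35 and a marker of nuclear speckles, rose most. It was at 119.3 and 129.9 TPM (WT) and 127.4 and 129.1 TPM (cKO) in early polysomes, and at 258.1 and 270.4 TPM (WT) and 256.2 and 336.1 TPM (cKO) in late polysomes. Every late library lay far above every early one, and cKO late replicate 2 was the highest. The change was 1.02 log2 (SE 0.087, adjusted p = 3.09e-05 by limma), and its scaled level was 1.89-fold to 2.31-fold higher in late polysomes in the 4 lysates. Exons of Srsf2 overlap those of Mettl23 and Mfsd11 on the opposite strand, over 15.6% and 9.74% of its exonic bases. Those genes were at a mean of 33.6 and 22.2 TPM, and whether reads were counted by strand is not stated.

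Srsf7, which adds a zinc knuckle to its RNA recognition motif and serves as an adaptor for mRNA export, came next. It was at 71.8 and 65.1 TPM (WT) and 66.5 and 63.1 TPM (cKO) in early polysomes, and at 120.4 and 121.7 TPM (WT) and 108.3 and 107.3 TPM (cKO) in late polysomes. Early and late libraries did not overlap, and replicates lay close together. Its change of 0.65 log2 (SE 0.063, adjusted p = 4.55e-05 by limma) ranged from 0.59 to 0.77 over lysates.

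Srsf11, an SR protein that takes part in neuronal microexon splicing, was at 102.3 and 91.8 TPM (WT) and 95.9 and 84.4 TPM (cKO) in early polysomes, and at 144.1 and 128.4 TPM (WT) and 137.8 and 154.6 TPM (cKO) in late polysomes. It rose by 0.47 log2 (SE 0.077, adjusted p = 0.000685 by limma) and was higher in late polysomes in 4 of 4 lysates. Srsf5, one of the members with a pair of RNA recognition motifs, was at 205.5 and 182.0 TPM (WT) and 190.7 and 193.7 TPM (cKO) in early polysomes, and at 305.7 and 308.2 TPM (WT) and 279.4 and 256.6 TPM (cKO) in late polysomes. It rose by 0.45 log2 (SE 0.073, adjusted p = 0.000645 by limma), by 0.24 in cKO lysate 2 and by 0.47 to 0.63 in the other lysates.

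Srsf4 and Srsf6, relatives of Srsf5 with the same domain layout, rose by less. Srsf4 changed by 0.19 log2 (SE 0.064, adjusted p = 0.027 by limma) and Srsf6 by 0.17 (SE 0.061, adjusted p = 0.0346). Both were higher in late polysomes in 4 of 4 lysates. Srsf4 exons overlap Gm12992 on the opposite strand over 43.0% of their bases, and Gm12992 was at a mean of 1.78 TPM. The Srsf4 call was lost in 6 of the 8 fits that left out 1 library, and the Srsf6 call in 7 of them and with lysate as a replicate block (adjusted p = 0.0686). Without WT early replicate 2, for example, adjusted p was 0.0552 for Srsf4 and 0.0737 for Srsf6.

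Srsf9 went the other way. This close relative of Srsf1 was at 173.5 and 175.1 TPM (WT) and 192.8 and 202.6 TPM (cKO) in early polysomes, and at 118.0 and 94.99 TPM (WT) and 103.0 and 81.5 TPM (cKO) in late polysomes. All 4 late libraries lay below all 4 early ones, with the lowest value in cKO late replicate 2. Its change was -1.02 log2 (SE 0.11, adjusted p = 6.52e-05 by limma), and its scaled late level was 0.361 to 0.642 of the early one in the 4 lysates. Srsf10, a regulator that represses splicing when it loses its phosphates, was at 54.6 and 54.4 TPM (WT) and 53.1 and 49.4 TPM (cKO) in early polysomes, and at 41.6 and 41.0 TPM (WT) and 40.7 and 43.4 TPM (cKO) in late polysomes. It fell by 0.45 log2 (SE 0.063, adjusted p = 0.00028 by limma), again without overlap between early and late libraries.

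Srsf1, the founding member of the family, changed by -0.19 log2 (SE 0.061, adjusted p = 0.020 by limma). It was lower in late polysomes in 4 of 4 lysates, but the call depended on the scaling, with -0.078 (adjusted p = 0.307) on TPM as deposited and -0.094 (adjusted p = 0.204) after quantile normalization. The Srsf1 call was also lost without WT early replicate 2 and without WT late replicate 2, with the change at -0.18 in both fits. Srsf3, the smallest SR protein and an export adaptor, differed by 0.087 log2 (SE 0.064, adjusted p = 0.252 by limma). It was at 128.9 and 122.4 TPM (WT) and 129.4 and 116.7 TPM (cKO) in early polysomes, and at 153.5 and 146.6 TPM (WT) and 134.7 and 138.5 TPM (cKO) in late polysomes. Unlike for Srsf1, other scalings brought Srsf3 past the threshold, at 0.20 (adjusted p = 0.0253) as deposited and 0.18 (adjusted p = 0.0323) after quantile normalization. TPM as deposited moved the median of all genes from -0.011 to 0.087. Srsf2, Srsf5, Srsf7, Srsf11, Srsf9 and Srsf10 kept their direction and passed in each of the 18 alternatives run for the average.

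**Figure D2:**
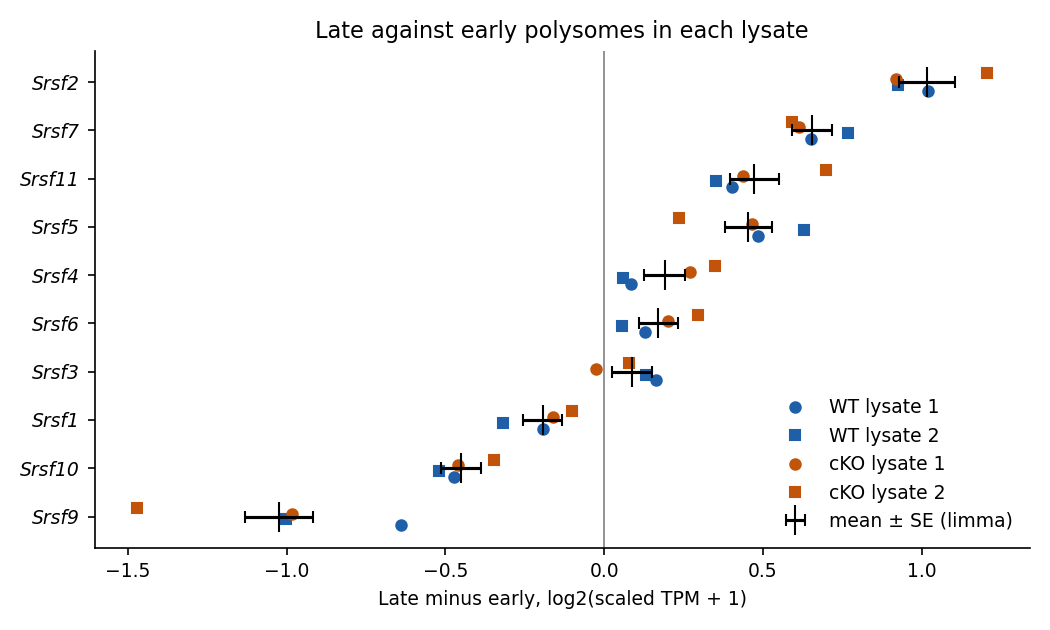
Late minus early log2(scaled TPM + 1) of each Srsf gene in the 4 lysates (WT blue, cKO orange; circles lysate 1, squares lysate 2), with limma's mean and standard error in black. Srsf2 lies at 0.92 to 1.21 and Srsf9 at -1.47 to -0.64, and Srsf3 is the gene whose lysates fall on both sides of 0.

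Within WT, 7 of the 10 genes passed, 4 higher (Srsf2, Srsf7, Srsf5 and Srsf11) and 3 lower (Srsf9, Srsf10 and Srsf1) in late polysomes, where 54.8% of all genes passed, 27.1% higher and 27.7% lower. Within cKO, 8 passed, 6 higher (Srsf2, Srsf7, Srsf11, Srsf5, Srsf4 and Srsf6) and 2 lower (Srsf9 and Srsf10), against 58.1% of all genes, 28.9% higher and 29.2% lower. After scaling, early and late libraries did not overlap for 10 of 10 genes in WT and for 9 in cKO (not Srsf3), beside 80.2% and 80.0% of all genes. In WT the adjusted p of Srsf1, Srsf3, Srsf4 and Srsf6 was 0.0333, 0.197, 0.530 and 0.390 by limma. In cKO that of Srsf1 and Srsf3 was 0.223 and 0.818. The test of these differences between genotypes is the interaction, given below. With lysate as a replicate block, Srsf1 in WT (adjusted p = 0.0687) and Srsf6 in cKO (adjusted p = 0.0720) no longer passed. The cKO count fell to 5 in the fit of only the 4 cKO libraries, for which the share of all genes is not given. Without both libraries of WT replicate 2, WT kept 1 library per fraction, and the counts of that fit are given in the closing section. Srsf2 was then at 1.02 log2 and Srsf7 at 0.65 in WT.

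Coding length differs between the members, and longer coding sequences can hold more ribosomes. Across 14671 tested genes with an annotated coding sequence, the late-minus-early change rose with coding length (Spearman's rho = 0.633, a description across genes, which share libraries and are not independent). Among the 10 Srsf genes rho with coding length was 0.13. Of them 6, Srsf1, Srsf2, Srsf5, Srsf7, Srsf9 and Srsf10, have coding sequences of 601 to 900 nt, a range in which 1898 tested genes had a median change of -0.51 log2. Within that range the Srsf genes ran from Srsf9 (-1.02) to Srsf2 (1.02), although their coding sequences are nearly the same length, at 666 and 663 nt without the stop codon.

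Of the 10 genes, 9 lay above the median of tested genes in the same 300-nt range of coding length, and Srsf9 lay below it by 0.51 log2. Srsf2 (1.53 above its range's median), Srsf7 (1.16), Srsf3 (1.11) and Srsf5 (0.96) were above the upper quartile of their range. Srsf3 has the shortest coding sequence of the family, 492 nt, and genes of 301 to 600 nt had a median change of -1.02 log2 against 0.087 for Srsf3. Srsf1, Srsf4, Srsf6, Srsf10 and Srsf11 lay inside the quartiles of their ranges, Srsf10 and Srsf4 within 0.06 of the median. Ranges of coding length were chosen with the Srsf values known and carry no test.

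**Figure D3:**
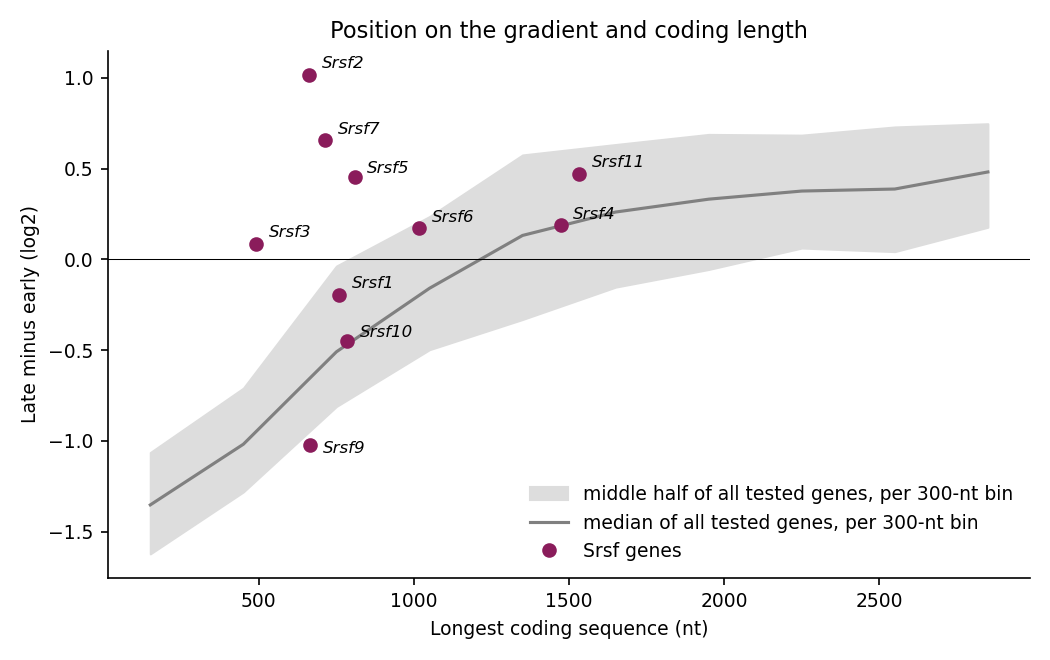
Late minus early change (log2, average of genotypes) against the longest annotated coding sequence (nt); the grey line and band are the median and the quartiles of all tested genes in bins of 300 nt. Srsf2, Srsf7, Srsf5 and Srsf3 lie above the band, Srsf9 below it, and the remaining 5 Srsf genes inside it.

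The share of arginine and serine codons, set against the change after both were known, ordered the family more closely than length did. Spearman's rho over the 10 genes was 0.70, with Srsf2 and Srsf7 high and Srsf9 low on both. Srsf11 departed from this order, with a share of 27.4% and a change of 0.47 log2, as did Srsf4, with 43.0% and 0.19 log2. The same share had rho = 0.0069 with the change across 14581 tested genes. These 10 genes share ancestry and libraries, and the value is a description.

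The genotype comparison asked whether loss of Mex3a changes SR factor messages on polysomes. None of the 10 genes passed in early or in late polysomes or on the mean of both fractions of a lysate, and 0 of 10 had an unadjusted p under 0.05 in any of the 3. By limma 0.0435% of all genes passed in early polysomes (6.65% at the unadjusted threshold), 0.0124% in late polysomes (9.36%) and 0.00621% for lysate means (11.3%). Voom on inferred whole reads also called 0 of the 10 in each. On lysate means the 10 changes ran from -0.096 (Srsf6) to 0.14 (Srsf2), with a median of -0.035 against 0.0015 for all tested genes.

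In early polysomes the differences ran from -0.17 log2 for Srsf6 (95% CI -0.37 to 0.025) to 0.24 for Srsf9 (-0.11 to 0.58). Srsf6 was at 158.2 and 157.7 TPM in WT and at 136.4 and 132.8 in cKO early libraries, so the genotypes did not overlap. Srsf4 was likewise lower in cKO early libraries, at 154.6 and 156.9 TPM against 179.3 and 181.6 (-0.15, 95% CI -0.36 to 0.054), and so was Srsf1, at 138.7 and 135.7 against 155.5 and 161.4 TPM (-0.15, 95% CI -0.35 to 0.048). After scaling, 5 of 10 genes did not overlap between genotypes in early libraries (Srsf1, Srsf2, Srsf4, Srsf6 and Srsf9), beside 37.1% of all tested genes.

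In late polysomes the differences ran from -0.17 log2 for Srsf9 (95% CI -0.52 to 0.18) to 0.19 for Srsf2 (-0.094 to 0.47). Scaled values of 5 of 10 genes did not overlap there (Srsf3, Srsf4, Srsf5, Srsf7 and Srsf10), beside 40.7% of all tested genes. Srsf5 was at 279.4 and 256.6 TPM in cKO against 305.7 and 308.2 in WT late libraries (-0.16, 95% CI -0.40 to 0.079), and Srsf7 at 108.3 and 107.3 against 120.4 and 121.7 (-0.13, 95% CI -0.33 to 0.077). Srsf4 was the only gene without overlap of scaled values in both fractions, lower in cKO early and higher in cKO late libraries. Its late values as deposited overlapped, at 197.6 and 224.9 TPM in cKO against 202.2 and 206.6 in WT, as did those of Srsf10. Over both fractions the intervals reached at most 0.58 and at least -0.52, both for Srsf9. With 2 libraries per group, changes within a gene's own interval remain possible.

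**Figure D4:**
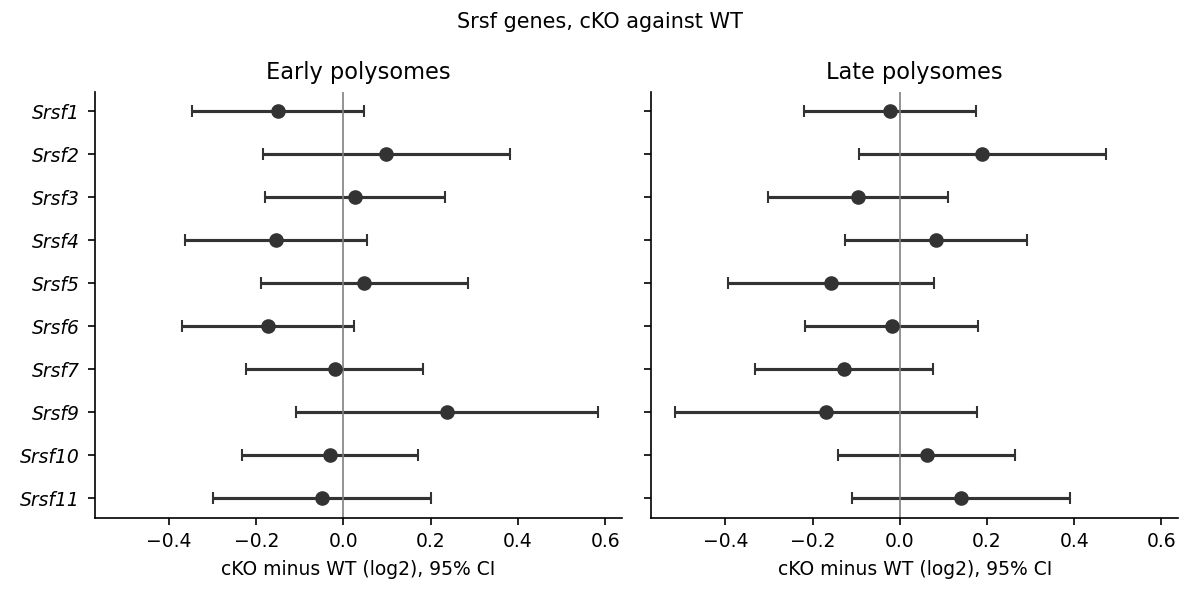
cKO minus WT change (log2) of each Srsf gene in early (left) and late (right) polysomes, with 95% confidence intervals from limma. All 20 intervals include 0, and Srsf9 has the widest.

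The interaction asked whether the shift between fractions differed between genotypes. None of the 10 genes passed (0.00621% of all genes did), and 0 had an unadjusted p under 0.05 by limma or voom, against 2.85% of all genes by limma. The values ran from -0.41 log2 for Srsf9 (95% CI -0.90 to 0.084) to 0.24 for Srsf4 (-0.058 to 0.53). Srsf9 fell by 0.64 and 1.00 log2 in WT lysates against 0.98 and 1.47 in the cKO pair, and these ranges overlapped. Srsf4 rose by 0.085 and 0.059 in WT lysates and by 0.27 and 0.35 in cKO lysates, and Srsf6 by 0.13 and 0.056 against 0.20 and 0.29. These 2 genes passed in late against early within cKO and not within WT, and that difference did not pass its own test (interaction adjusted p = 1.0 for both).

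Other genes of the splicing and decay machinery gave the background to these positions, and their counts stand beside 34.3% of all genes higher and 34.6% lower in late polysomes. Of 9 tested genes of SR kinases and import, 4 rose and 1 fell in late polysomes on average of genotypes, with a median of 0.16 log2. Prpf4b, a kinase of the spliceosome, rose by 0.74 (SE 0.084, adjusted p = 9.62e-05 by limma), and Tnpo3, the transportin that returns SR proteins to the nucleus, by 0.68 (SE 0.063, adjusted p = 3.85e-05). Clk4, a kinase of SR proteins that is itself known for a detained intron, fell by 0.41 log2 (SE 0.11, adjusted p = 0.0116).

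Among 27 SR-related genes 18 rose and 5 fell, with a median of 0.41. Rsrp1 rose by 1.09 and Srrm3, a neuronal microexon factor, by 0.96, while Arglu1 fell by 0.80 and Nktr by 0.40. Of 26 hnRNP genes, whose products often oppose SR proteins at splice sites, 19 rose and 4 fell, with a median of 0.60. Ptbp1 (1.18) and Hnrnpa2b1 (1.17) rose most, and Ptbp3 (-0.44) and Hnrnpab (-0.42) fell most. All of these changes went the same way in 4 of 4 lysates.

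Of 18 genes of splice site recognition, 12 rose and 5 fell, with a median of 0.68. Sf3b2 (1.49) and Sf3b3 (0.98), large subunits of the SF3b complex that binds the branch site, rose, and the small subunits Sf3b6 (-1.35) and Sf3b5 (-1.28) fell. Of 15 genes of NMD and the exon junction complex, 9 rose and 4 fell, with a median of 0.47. The helicase gene Upf1 (1.12) and Smg9 (1.00) rose, and the small junction proteins Magohb (-1.57) and Rbm8a (-1.34) fell. No gene of the 5 lists passed in a genotype comparison or in the interaction by limma, and 0 to 3 genes of a list had an unadjusted p under 0.05 there. On lysate means these were 3 of 9 kinase and import genes and 3 of 15 NMD and junction genes. The other lists had 1 of 27 (SR-related), 2 of 26 (hnRNP) and 0 of 18 (splice site), beside 11.3% of all genes. In late polysomes the cKO minus WT differences of the kinase and import genes ran from -0.53 to -0.0071 log2 (median -0.19). No list was tested as a set.

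**Figure D5:**
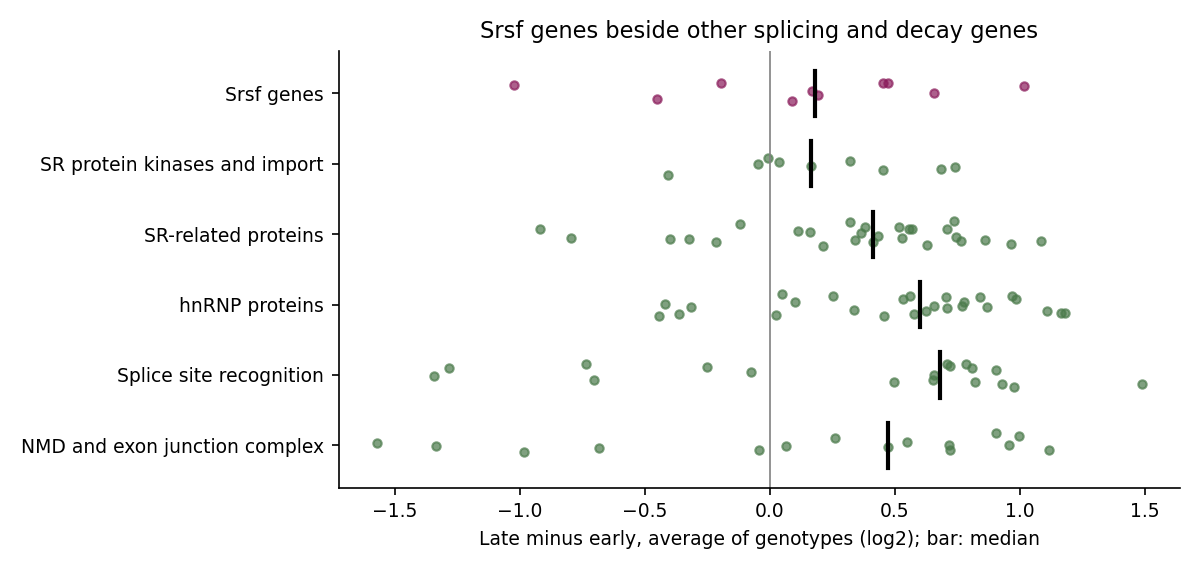
Late minus early change (log2, average of genotypes) of the 10 Srsf genes and of the tested genes in 5 other lists; each point is a gene and the bar is the list's median. The Srsf median is 0.18 and the medians of the other lists run from 0.16 to 0.68, with genes on both sides of 0 in every list.

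The mean centred profile of the 10 Srsf genes ran from -0.084 (cKO early replicate 2) to 0.11 log2 (WT late replicate 1), since rising and falling members cancelled. The 5 closest genes of 12806 by root-mean-square difference over the 8 libraries were Atp9b (0.030 log2), Zfp148 (0.032), Ddit4 (0.036), Zhx2 (0.037) and Tssc1 (0.037). This nearly flat profile was shared widely, with 566 genes closer than 0.1 log2. The members themselves lay 0.051 (Srsf3) to 0.60 log2 (Srsf9) from their own mean, so the mean describes Srsf3, Srsf6 and Srsf4 and not the ends of the family.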

How the data were processed

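RNA of early and late polysomes was sequenced from WT and cKO olfactory epithelium in 8 libraries made with a stranded total RNA kit, per the labels' protocols. The authors deposited TPM per gene symbol, each library summing to 1000000. FastQC, cutadapt, STAR, DESeq2 and mm10 are named, without roles, per the submitters' processing notes. The counter, the annotation and the use of strand are not given in the sources used here. Reads of processed pseudogenes close to Srsf3, Srsf5, Srsf7 and Srsf10 may be counted with these genes.

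Whole reads were inferred from TPM steps for 19783 genes (tolerance 0.001 reads; on simulated libraries 99.6% of 19540 genes came back exactly). After median-ratio scaling, limma 3.58.1 (R 4.3.3, with a mean-variance trend) was fitted to log2(scaled TPM + 1) of all 4 groups together, over 16097 genes whose deposited TPM averaged 1 or more. On simulated libraries with 200 genes changed 3-fold, the average late-against-early test recovered all 200 with 19 false calls among 16057 genes tested, and the early genotype test 197 of the 200 with 18. The simulated libraries were independent and had a fixed spread, and far fewer genes changed between fractions than the 68.9% that passed in the data. Recovery of changes smaller than 3-fold was not simulated. Lysate means were tested separately. All 10 Srsf genes were named. Each list contributed by name at most 2 passing genes per direction, those most changed between late and early polysomes on average, among genes averaging 5 TPM or more. Members and lists were chosen with earlier results of these data known.

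Library names give early and late libraries of a genotype and number the same lysate, so these were paired in an alternative fit. Their deviations from group means correlated at 0.086 in WT and 0.050 in cKO. Alternatives were other pseudocounts, filters, scalings, no trend, voom, blocks, fewer libraries and each library left out. Gene models came from GENCODE M21 (GRCm38). Figures were drawn with matplotlib 3.10.9.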

Additional observations from a re-analysis of the deposited data

How the results depend on the processing

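Shares of all genes passing are not given for most alternatives below. Whether lost calls are particular to the Srsf genes was therefore not tested. Counts of Srsf genes past the threshold are given for late against early polysomes in WT (7), in cKO (8) and on average (9). Over the fits that each left out 1 library they ranged from 5 to 7, 5 to 7 and 6 to 9, where a group reduced to 1 library is assumed to vary like the others. With lysate as a replicate block they were 6, 7 and 8. The fit of only the 4 libraries compared gave 7 in WT and 5 in cKO. Without both libraries of WT replicate 2, an alternative chosen after seeing the data, they were 0, 5 and 6; WT then had 1 library in each fraction, and 0 of all 16097 genes passed there, with Srsf2 at 1.02 log2 against 0.97 with all libraries. All 0 counts between genotypes and in the interaction stayed 0 in every alternative run, the replicate block on the number across genotypes included. WT and cKO lysates of the same number share only that number, with deviations correlating at 0.332 in early and 0.143 in late libraries. In the genotype comparisons, where no Srsf gene passed, small differences changed sign. On TPM as deposited, Srsf3 was at -0.031 and Srsf5 at -0.0090 in early polysomes, and on lysate means Srsf9 was at -0.014, Srsf10 at -0.032 and Srsf11 at -0.0024. Without both libraries of WT replicate 2, Srsf3 was at -0.0014 and Srsf5 at -0.030 in early polysomes. Leaving out 1 library, the early difference ranged from -0.033 to 0.084 for Srsf3, -0.030 to 0.13 for Srsf5, -0.081 to 0.040 for Srsf7, -0.067 to 0.0051 for Srsf10 and -0.13 to 0.026 for Srsf11. The late difference ranged from -0.054 to 0.0075 for Srsf1, -0.061 to 0.025 for Srsf6 and -0.36 to 0.024 for Srsf9. Leaving out 1 lysate, the difference of lysate means ranged from -0.082 to 0.011 for Srsf4, -0.040 to 0.11 for Srsf9 and -0.035 to 0.12 for Srsf11. The interaction ranged from -0.078 to 0.26 for Srsf2 and -0.50 to 0.017 for Mex3a, and late minus early in cKO from -0.032 to 0.085 for Srsf3. The cause of these changes was not tested.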
